A study of Homo sapiens with 6 samples.

Results

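Of the 9 genes described here, 4 encode claudins (CLDN1, CLDN4, CLDN7 and CLDN12), 2 encode the MARVEL proteins occludin (OCLN) and tricellulin (MARVELD2), 1 encodes the adhesion molecule JAM-A (F11R), and 2 encode the plaque proteins ZO-1 (TJP1) and cingulin (CGN). They were chosen by name as components of the epithelial tight junction, with earlier results of these data known, and they are 9 of the 26334 genes in the deposited count table. All 9 had enough reads to be tested, among 16117 genes that did. The measurements were poly(A) RNA-seq libraries of MCF10DCIS.com, a human breast cancer cell line of the MCF10A lineage that grows as comedo ductal carcinoma in situ in mice. The study asked which genes depend on WDR5, a WD-repeat subunit shared by the complexes that methylate histone H3 at lysine 4. The shLuc group (3 libraries) had received the vector pRSI-U6-shLuc-UbiC-TagRFP-2A-Puro, whose hairpin is directed at luciferase, and the shWDR5 group (3 libraries) the same backbone with a hairpin against WDR5.

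Both groups were therefore infected, carried the TagRFP and puromycin resistance cassette and had been selected in puromycin, and both were grown in DMEM/F12 with horse serum, L-glutamine, HEPES and added calcium chloride. All 6 libraries came from 1 cell line. For other experiments the study's methods describe 2 hairpins against WDR5 used as a pool, whereas the labels of these libraries do not say which hairpin was used. Nor do they say whether the replicates were separate infections or cultures, so the p-values measure the spread between these libraries, which may be technical.

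Tight junctions are the belts that seal neighbouring epithelial cells to each other near their apical side. Claudins form the strands and decide which ions and small molecules pass between the cells, occludin sits along the strands where cells meet in pairs, and tricellulin sits at the corners where 3 cells meet. ZO-1 and cingulin form the plaque beneath the membrane that ties the strands to actin, and in mammary epithelium the junctions accompany the polarised organisation of the ducts.

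The libraries held between 38218108 and 57640167 counted reads. WDR5 itself, at hg19 chr9:137001210-137025094 on the plus strand, had 52.6, 48.5 and 51.3 CPM in the shLuc libraries and 23.4, 24.4 and 20.8 in the shWDR5 libraries. CPM stands for counts per 1000000 reads after TMM scaling, a scale that sets the libraries side by side but does not correct for gene length. Its fold was 0.450 (log2 fold change -1.15, SE 0.0737, adjusted p = 8.67e-07), so the libraries carry the labelled knockdown. Every fold, SE and adjusted p is from edgeR's quasi-likelihood test with Benjamini-Hochberg adjustment over all genes tested, and a gene was called when its adjusted p was below 0.05. The 10 breast epithelial markers examined (such as EPCAM, CDH1, KRT5 and KRT18) were all detected, as the labelled cell type requires. Their summed level was 14579 to 16172 CPM in shLuc and 24183 to 28006 CPM in shWDR5. Of the 5 fibroblast markers, 4 were below 1 CPM in every library, and the sum of the list was 21.6 to 23.7 against 14.9 to 17.8 CPM. The 3 endothelial markers summed to 7.58 to 7.93 against 4.71 to 5.36 CPM, with 1 of them below 1 CPM throughout, and the 3 leukocyte markers to 1.47 to 1.94 against 0.838 to 0.971 CPM, with 1 at 0. The 3 myoepithelial markers summed to 5.75 to 6.84 against 14.9 to 16.6 CPM. Most of that was ACTA2, with 4.66 to 5.81 against 13.8 to 15.0, while MYH11 was not called and CNN1 was below 1 CPM throughout. The 3 markers of oestrogen receptor positive luminal cells summed to 35.8 to 42.2 against 29.0 to 31.1 CPM. Most of that was GATA3, with a mean of 35.0 against 26.6 CPM. ESR1 (3.68 against 3.44 CPM) was not called, and PGR was below 1 CPM throughout. The part of these differences in the junction genes was not tested. All libraries came from 1 cell line, so the sums do not show that other cell types were present. In bulk libraries such as these, a changed share of cells that express a gene and a changed amount of RNA per cell cannot be told apart.

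Of the 9 junction genes, 3 were higher in shWDR5 (CLDN1, F11R and TJP1), 4 were lower (OCLN, MARVELD2, CLDN7 and CLDN4) and 2 were not called (CLDN12 and CGN). Among all genes tested 56.5% were called, 26.6% as higher and 29.9% as lower, so a call by itself was common in this comparison. The groups' CPM ranges did not overlap for 7 of the 9 genes, against 62.3% of all genes. Their median log2 fold change was -0.12 beside -0.01 for all genes tested, and the median of its absolute size was 0.28 beside 0.31. Under the call rule of the study's methods, which adds an absolute log2 fold change of at least 0.6 and an RPKM above 0.5, only OCLN and MARVELD2 remained, both lower. By that rule 18.4% of all genes were called, 7.9% as higher and 10.5% as lower.

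**Figure D1:**
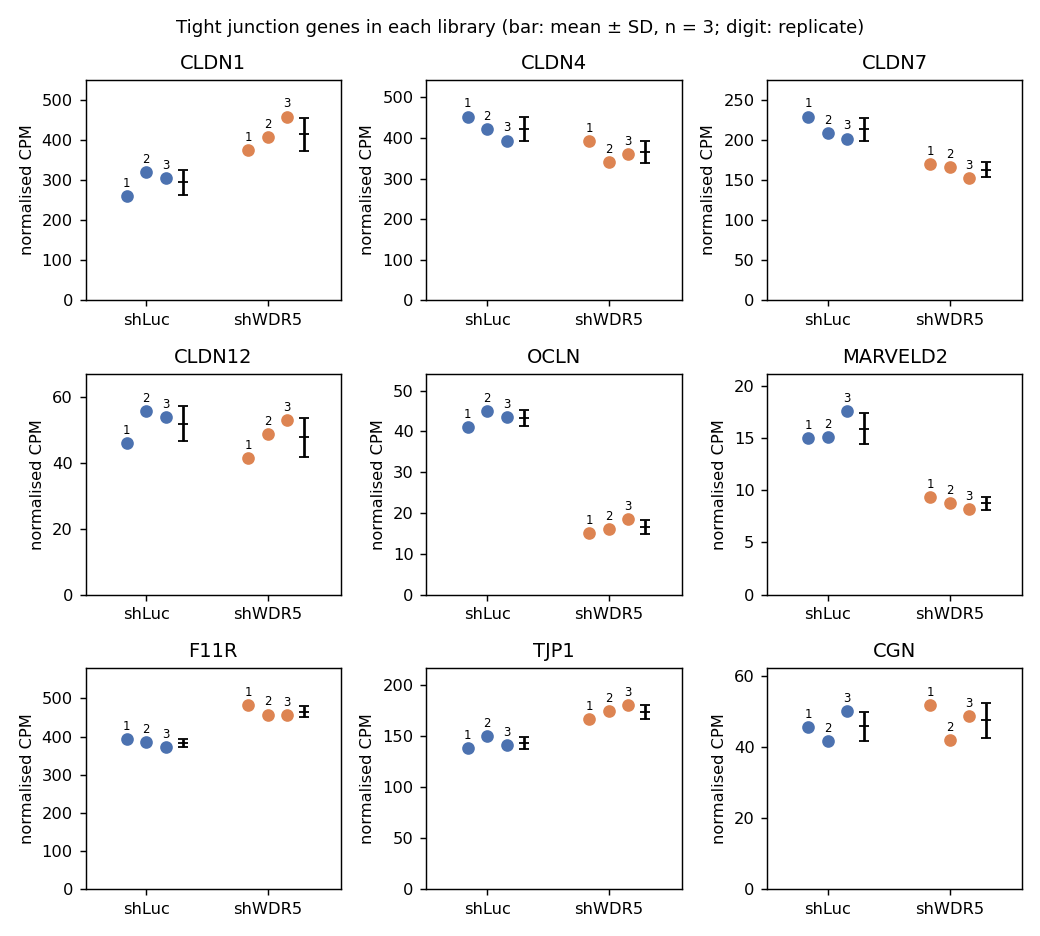
Normalised level of each of the 9 tight junction genes in every library, in TMM-scaled CPM on axes that start at 0, with shLuc in blue and shWDR5 in orange. Each point is 1 library marked with its replicate number, and the bar beside the points is the mean ± SD of the 3 libraries. The shWDR5 points of OCLN (15.2 to 18.5) and MARVELD2 (8.16 to 9.39) sit well below the shLuc points, whereas those of CLDN12 and CGN overlap.

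The MARVEL proteins showed the largest differences of the set. OCLN (hg19 chr5:68788119-68853931, plus strand, 10 merged exons) had 41.0, 45.1 and 43.6 CPM in shLuc and 15.2, 16.2 and 18.5 CPM in shWDR5. The highest shWDR5 library was thus below even the lowest shLuc library by more than the spread of either group. The mean fell from 43.2 ± 2.03 to 16.6 ± 1.68 CPM (SD, n = 3 each), a fold of 0.385 (log2 fold change -1.38, SE 0.0816, 95% interval -1.56 to -1.20, adjusted p = 5.59e-07). Of all genes tested, 1.52% were called lower with a fall at least as large. A pseudogene copy, OCLNP1, is annotated as well, and how reads that fit both were treated could not be followed from the deposited counts.

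MARVELD2 (hg19 chr5:68710939-68737890, plus strand, 7 merged exons) had 15.0, 15.1 and 17.6 CPM in shLuc and 9.39, 8.76 and 8.16 CPM in shWDR5. Its groups did not overlap either. The mean went from 15.9 ± 1.48 to 8.77 ± 0.615 CPM, a fold of 0.552 (log2 fold change -0.86, SE 0.0895, 95% interval -1.06 to -0.66, adjusted p = 2.11e-05), and 6.13% of all genes were called lower with a fall at least as large. Across 16 other analyses of the same counts the log2 fold change stayed between -1.46 and -1.32 for OCLN and between -0.93 and -0.78 for MARVELD2, with every adjusted p past the threshold. A further MARVEL gene of the tight junction, MARVELD3, was chosen for mention after its values were seen: it fell from 19.7 ± 1.09 to 15.0 ± 0.370 CPM (log2 fold change -0.40, adjusted p = 6.63e-04). Per length, OCLN, MARVELD2 and MARVELD3 together had 47.3 ± 2.80 TPM (transcripts per 1000000 transcripts, which corrects for length) in shLuc and 24.4 ± 0.276 TPM in shWDR5.

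The start regions of the pair that fell the most are shown whole, as the 250 bases before the RefSeq start in GRCh38.p14, 5′ to 3′ on the coding strand. That of OCLN lies at chr5:69492297-69492546 and that of MARVELD2 at chr5:69414866-69415115. Capitals mark CAGGTG or its reverse complement CACCTG, the E-box that the Snail and Zeb repressors bind, searched on both strands.
OCLN: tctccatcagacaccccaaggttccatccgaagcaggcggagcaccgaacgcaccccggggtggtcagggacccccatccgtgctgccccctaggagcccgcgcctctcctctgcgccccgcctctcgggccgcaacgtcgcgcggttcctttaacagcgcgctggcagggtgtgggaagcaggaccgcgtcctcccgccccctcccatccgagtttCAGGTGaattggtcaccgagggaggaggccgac
MARVELD2: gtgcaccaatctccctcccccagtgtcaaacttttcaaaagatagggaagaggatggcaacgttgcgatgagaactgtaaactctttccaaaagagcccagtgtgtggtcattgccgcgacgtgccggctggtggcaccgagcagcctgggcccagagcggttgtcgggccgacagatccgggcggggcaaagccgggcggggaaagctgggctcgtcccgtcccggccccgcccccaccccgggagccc
The OCLN window held the motif once, its first base 33 bases before the start, and the MARVELD2 window did not hold these letters. Of 35116 such windows in the RefSeq table, 17.5% held the motif. RefSeq gave 13 windows for 8 of the 9 genes, and 4 of those 13 held it. The other matches are given as 30-base stretches, to show where the letters stand in the remaining windows: a second OCLN start (chr5:69492645-69492674, plus strand), a second CLDN7 start (chr17:7262635-7262664, chr17:7262596-7262625 and chr17:7262481-7262510, minus strand) and a TJP1 start (chr15:29969120-29969149, minus strand).
OCLN, second start: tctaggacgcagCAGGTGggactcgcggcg
CLDN7, farthest from the start: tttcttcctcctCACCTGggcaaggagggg
CLDN7, middle: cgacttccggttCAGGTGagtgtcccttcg
CLDN7, nearest to the start: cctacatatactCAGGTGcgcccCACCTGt
TJP1: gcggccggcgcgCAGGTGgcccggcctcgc
The second CLDN7 window thus held the letters 4 times. The E-box was present before genes that were lower (OCLN, CLDN7) and before one that was higher (TJP1) in shWDR5. The CACGTG E-box, to which Myc and Max bind and which 6.34% of all windows hold, and the Grainyhead-like motif AACNNGTT, which 3% hold, each occurred in 1 member window, that of CGN. These are matches of letters in a fixed window, and no binding was measured.

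OCLN and MARVELD2 lie on the same strand of chromosome 5, separated by 50.2 kb with no other gene of the table between them, so their surroundings were examined after both falls had been seen. Within 500 kb of OCLN the table holds 15 genes, of which 13 were tested: 6 were lower, 1 was higher and 6 were not called. Those 6 lower genes include OCLN and MARVELD2, which prompted the look, and without them 4 of 11 (36.4%) were lower, beside 29.9% of all genes. RAD17, a checkpoint gene that ends 308 bases before MARVELD2 begins, had a log2 fold change of -0.14 and was not called (adjusted p = 0.326). The mitotic genes CCNB1 (cyclin B1) and CENPH (a centromere protein) on the other side of RAD17 had log2 fold changes of -0.63 and -0.83, SLC30A5 and TAF9 of -0.24 and -0.26, and AK6 of 0.27. OCLN had the largest fall of the 13. AK6 and TAF9 overlap each other and the start of RAD17, so the reads of these genes may be uncertain. GTF2H2C and GTF2H2C_2, both not called, cover nearly the same stretch, with 0.494 and 0.612 CPM in shLuc, and may not count as separate genes. SMN1 and SMN2, near-identical copies farther along the chromosome, were listed at 0 reads in every library.

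**Figure D2:**
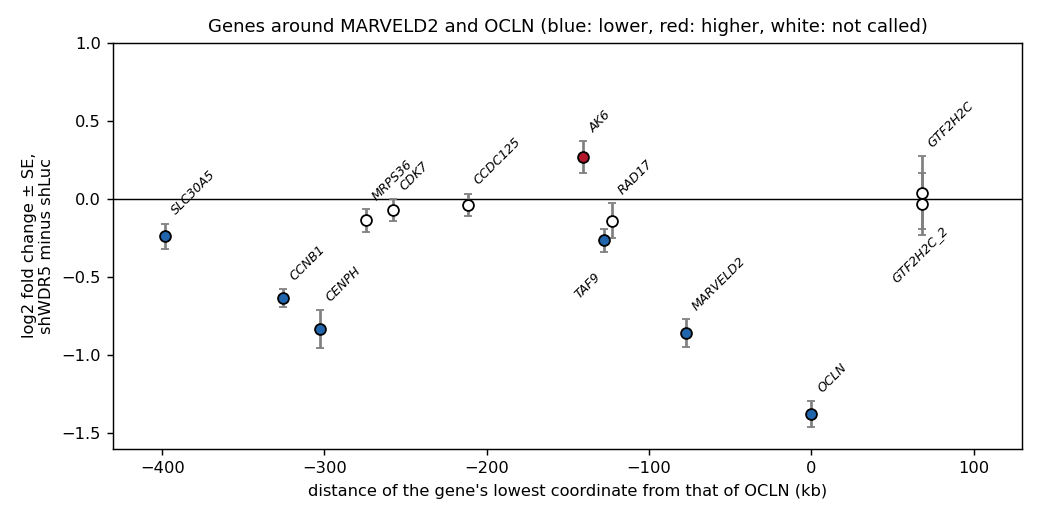
Log2 fold change (shWDR5 against shLuc) of the 13 tested genes within 500 kb of OCLN, by the distance in kb of each gene's lowest coordinate from that of OCLN. Bars are ± SE from the edgeR fit, and points are blue where lower, red where higher and white where not called. OCLN at -1.38 and MARVELD2 at -0.86 lie below RAD17, which at -0.14 was not called.

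The claudins did not move together. CLDN1, a barrier-forming claudin abundant in stratified and basal epithelia, lies at hg19 chr3:190023490-190040235 on the minus strand (4 merged exons). It had 260, 320 and 305 CPM in shLuc and 376, 408 and 458 CPM in shWDR5. All shWDR5 libraries were above all shLuc libraries. Its mean rose from 295 ± 31.2 to 414 ± 41.5 CPM (SD, n = 3 each), a fold of 1.40 (log2 fold change 0.49, SE 0.0894, 95% interval 0.29 to 0.69, adjusted p = 9.13e-04).

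CLDN7, a claudin of simple and glandular epithelia, lies at hg19 chr17:7163222-7166512 on the minus strand (5 merged exons). It had 229, 209 and 202 CPM in shLuc and 171, 166 and 153 CPM in shWDR5, again without overlap. It fell from 214 ± 14.2 to 163 ± 9.31 CPM, a fold of 0.764 (log2 fold change -0.39, SE 0.0656, 95% interval -0.53 to -0.24, adjusted p = 5.42e-04). It shares 38 exonic bases, 1.86% of its exons, with ELP5 on the opposite strand, and ELP5 had a log2 fold change of -0.07 (adjusted p = 0.389). A pseudogene copy, CLDN7P1, is annotated too.

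CLDN4, a claudin that narrows the passage of sodium between cells, lies at hg19 chr7:73245193-73247023 on the plus strand as a single exon. It had 453, 422 and 393.5 CPM in shLuc and 393.4, 341 and 361 CPM in shWDR5. The lowest shLuc and the highest shWDR5 library were almost equal. The mean went from 423 ± 29.5 to 365 ± 26.7 CPM, a fold of 0.863 (log2 fold change -0.21, SE 0.0697, 95% interval -0.37 to -0.06, adjusted p = 0.0239). The direction held in all of 16 other analyses, but the call was lost in 4: with upper-quartile scaling (adjusted p = 0.0655), without shLuc replicate 1 (0.0933), without shWDR5 replicate 2 (0.104) and without shWDR5 replicate 3 (0.0617).

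CLDN12, which lacks the carboxy-terminal motif by which most claudins hold ZO proteins, lies at hg19 chr7:90032648-90045268 on the plus strand (4 merged exons). It had 45.9, 55.7 and 53.9 CPM in shLuc and 41.3, 48.8 and 52.8 CPM in shWDR5, and the groups overlapped. Its fold of 0.919 had a 95% interval of 0.789 to 1.07 (log2 fold change -0.12, SE 0.0991, adjusted p = 0.325). The interval thus holds both a lower and a slightly higher level in shWDR5. With a term for the replicate number, the same test called it lower (log2 fold change -0.13, SE 0.0469, adjusted p = 0.0364).

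**Figure D3:**
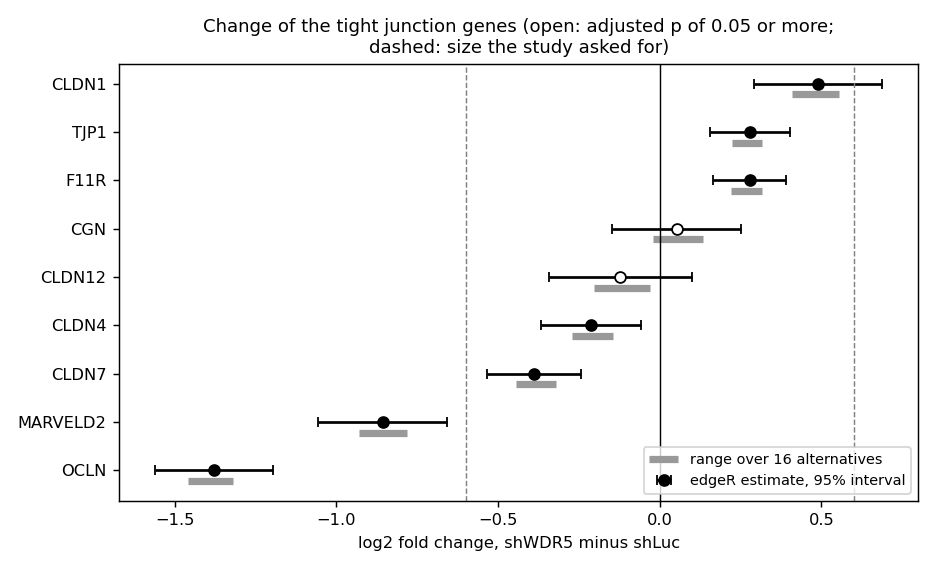
Log2 fold change (shWDR5 against shLuc, horizontal axis) of the 9 genes in order of size, with thin bars for the 95% intervals of the edgeR fit, grey bars for the range over 16 other analyses, and open points where the gene was not called. Dashed lines mark the fold limit of 0.6 in the study's call rule. The claudins spread from -0.39 (CLDN7) to 0.49 (CLDN1), OCLN and MARVELD2 lie farthest to the left, and the intervals of CLDN12 and CGN cross 0.

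Levels can be compared between genes only per length, for which counts were turned into TPM with the exon length in the table. In shLuc the order was CLDN4 (588 ± 33.8 TPM), CLDN7 (266 ± 13.2), CLDN1 (218 ± 27.5), F11R (202), TJP1 (42.6), CLDN12 (36.1), CGN (22.8), MARVELD2 (18.8) and OCLN (16.8 ± 1.14). Only the neighbours CLDN1 and F11R, and MARVELD2 and OCLN, had overlapping library values. In shWDR5 the order was CLDN4 (482 ± 28.6 TPM), CLDN1 (291 ± 34.7), F11R (233), CLDN7 (193 ± 7.83), TJP1 (49.1), CLDN12 (31.5), CGN (22.5), MARVELD2 (9.82) and OCLN (6.13 ± 0.733), and no neighbours overlapped. CLDN7 thus moved from above to below CLDN1 and F11R.

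The table lists 24 claudin genes, of which 19 had reads in every library and 3 had none in any. Their summed level was 1131, 1163 and 1085 TPM in shLuc and 1019, 994 and 1058 TPM in shWDR5, and the 4 member claudins made up 98.4 ± 0.0238% and 97.4 ± 0.157% of it. Within that sum the share of CLDN4 was 52.2 ± 1.94% in shLuc and 47.1 ± 2.47% in shWDR5, that of CLDN7 23.6 ± 0.951% and 18.9 ± 1.31%, and that of CLDN12 3.21 ± 0.392% and 3.08 ± 0.400%. CLDN1 went the other way, from 19.4 ± 2.42% to 28.4 ± 2.84%. The ratio of CLDN4 to CLDN1 on the TPM scale was 3.28, 2.49 and 2.43 in the shLuc libraries and 1.97, 1.57 and 1.48 in the shWDR5 libraries. These sums, shares and ratios are descriptions, with no test of their own. The TPM were not TMM-scaled, so the sums were not taken as a difference in level between the groups.

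**Figure D4:**
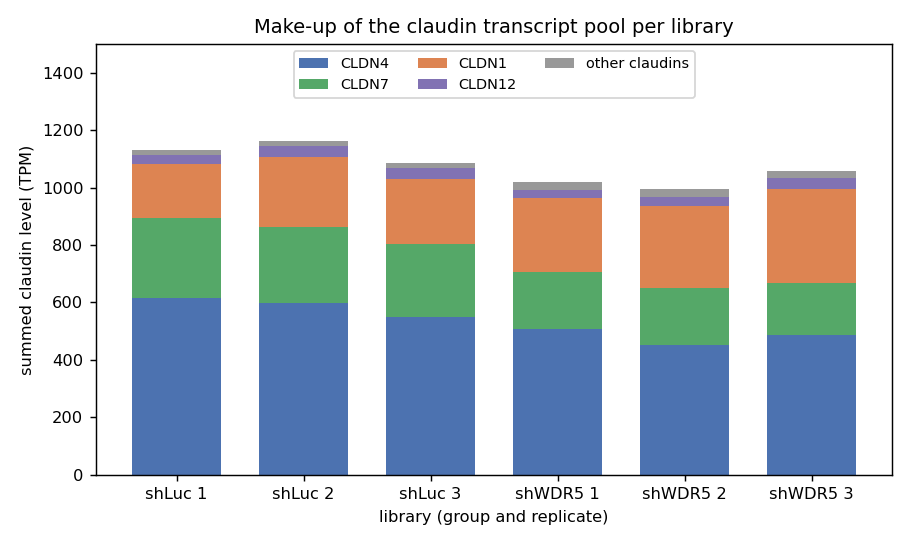
Summed claudin level in TPM in each of the 6 libraries, as stacked bars from 0 made up of the 4 member claudins and all other claudin genes together. CLDN1 takes 16.6 to 20.8% of the shLuc bars and 25.3 to 30.9% of the shWDR5 bars.

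F11R encodes JAM-A, an immunoglobulin-type adhesion molecule that recruits polarity proteins to the junction. The gene, at hg19 chr1:160965001-160991133 on the minus strand (10 merged exons), had 394, 385 and 372 CPM in shLuc and 483, 458 and 455 CPM in shWDR5, without overlap. It rose from 384 ± 10.7 to 465 ± 15.2 CPM, a fold of 1.21 (log2 fold change 0.28, SE 0.0508, 95% interval 0.17 to 0.39, adjusted p = 9.07e-04).

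Of the plaque proteins, TJP1 (hg19 chr15:29991571-30261002, minus strand, 32 merged exons), whose product ZO-1 binds the tails of claudins and occludin, had 138, 149.5 and 141 CPM in shLuc and 166, 174 and 180.4 CPM in shWDR5. The groups did not overlap, and the mean rose from 143 ± 5.82 to 174 ± 7.03 CPM, a fold of 1.21 (log2 fold change 0.28, SE 0.0561, 95% interval 0.15 to 0.40, adjusted p = 0.00164). CGN (hg19 chr1:151483862-151511167, plus strand, 21 merged exons), whose product cingulin binds ZO-1, had 45.5, 41.7 and 49.96 CPM in shLuc and 51.7, 41.98 and 48.6 CPM in shWDR5. These values were interleaved. The fold of CGN was 1.04 with a 95% interval of 0.903 to 1.19 (log2 fold change 0.05, SE 0.0900, adjusted p = 0.651), and its sign turned when the counts were scaled by library size alone (-0.01) and when some single libraries were left out.

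F11R and TJP1 were thus higher and CGN was not called, while both MARVEL genes and 2 of the 4 claudins were lower. Whether the fall of OCLN differs from that of MARVELD2 was not tested, although their 95% intervals of -1.56 to -1.20 and -1.06 to -0.66 lie apart.

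To place the 9 genes within the rest of the junction, 5 further lists were counted in the same fit, 81 genes in all, of which 72 were tested. Of these, 20 were higher and 23 lower, 43 genes or 59.7%, near the 56.5% among all genes. The share called was 53.8% of the other claudins, 66.7% of the other transmembrane proteins, 43.8% of the other plaque proteins, 68.8% of the signalling proteins and 66.7% of the transcription factors. The counts in each direction below stand beside 26.6% higher and 29.9% lower over all genes. CLDN6 and ZEB2 passed the low-count filter only through the shWDR5 libraries, where they were high. The totals and shares above include their calls, which should be given no weight. Without CLDN6, 12 other claudins were tested, with 4 higher and 2 lower. Without ZEB2, 14 transcription factors were tested, with 4 higher and 5 lower. By the stricter rule of the study's methods 4 of the 72 genes were higher and 4 lower.

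Among the other claudins, 13 of 19 were tested, 5 were higher and 2 lower, or 4 higher of 12 without CLDN6. Those named by the size of their fold were all low in level. The 2 lower ones had smaller folds, fall outside the rule for named genes and were added after their values were seen. CLDN9 fell from 2.01 to 1.52 CPM (log2 fold change -0.42, adjusted p = 0.0470) and CLDN23 from 1.80 to 1.23 CPM (-0.55, adjusted p = 0.00921). CLDN15, which forms a cation pore in intestine, rose from 4.65 ± 0.528 to 11.3 ± 0.997 CPM (log2 fold change 1.28, adjusted p = 3.92e-06). CLDN16, known from magnesium handling in kidney, and CLDN11, known from myelin and Sertoli cells, had log2 fold changes of 0.88 (adjusted p = 0.00632) and 1.04 (adjusted p = 0.0135), and the call on CLDN11 was lost with DESeq2, without shLuc replicate 3 and without shWDR5 replicate 2. CLDN6, an embryonic claudin, had 8 reads in the 3 shLuc libraries together and 44 in the 3 shWDR5 libraries. It passed the filter only through the latter, so no ratio is given. Even the most abundant of these, CLDN15, held 0.469% of the summed claudin level in shLuc and 1.19% in shWDR5.

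Of 12 tested genes for other transmembrane proteins (13 listed), 3 were higher and 5 lower. The angulins, which draw tricellulin to the corners between cells, did not move alike: LSR rose from 229 to 335 CPM (log2 fold change 0.55, adjusted p = 4.62e-05) and the much scarcer ILDR1 fell from 1.33 to 0.599 CPM (-1.15, adjusted p = 2.57e-04). BVES, a Popeye-domain protein found at cell contacts, fell from 13.5 to 9.70 CPM (-0.47, adjusted p = 2.62e-04). ESAM, an adhesion molecule best known from endothelium, rose from 0.254 to 0.620 CPM (1.26, adjusted p = 9.63e-04), a level under 1 CPM in each group.

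Among the other plaque proteins, 7 of 16 tested (17 listed), or 43.8%, were lower and 0 were higher by edgeR's quasi-likelihood test (also 0 at an unadjusted p below 0.05, with DESeq2 and with limma-voom). This list leaves out TJP1, which was higher, and whether it differs from the other lists was not tested. AMOT, the scaffold angiomotin, which binds YAP, fell from 10.6 to 3.97 CPM (log2 fold change -1.41, adjusted p = 2.46e-06). TJP3, which encodes ZO-3, fell (-0.59, adjusted p = 9.80e-05), in the opposite direction to TJP1. The multi-PDZ protein gene MPDZ (-0.49, adjusted p = 1.05e-04) and MPP5, which encodes the polarity protein PALS1 (-0.44, adjusted p = 0.00370), fell as well.

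Of the 16 genes for signalling proteins at the plaque, 7 were higher and 4 lower. ARHGEF11, whose product binds ZO-1, rose from 90.0 to 127 CPM (log2 fold change 0.50, adjusted p = 2.88e-05), and the small GTPase gene CDC42 rose from 209 to 267 CPM (0.35, adjusted p = 2.31e-04). PARD6A, a subunit of the Par polarity complex, fell from 2.13 to 0.933 CPM (-1.19, adjusted p = 7.53e-05). MYL9, a myosin regulatory light chain, had -0.49 (adjusted p = 0.0159), a call that was lost with DESeq2, without shLuc replicate 1 and without replicate 1 of both groups.

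Among 15 tested genes (16 listed) for transcription factors known to act on junction genes, 5 were higher and 5 lower, or 4 higher of 14 without ZEB2. The repressors of the Snail, Zeb and Twist families did not move alike. SNAI2 had 17.3 ± 0.906 CPM in shLuc and 41.9 ± 4.08 CPM in shWDR5 (log2 fold change 1.28, adjusted p = 9.35e-07), and ZEB1 had 1.21 and 2.06 CPM (0.78, adjusted p = 0.00232). SNAI1 had 1.14 and 0.885 CPM (-0.39, adjusted p = 0.0965) and was not called, and TWIST1 was lower, with 5.93 and 4.70 CPM (-0.34, adjusted p = 0.00748). SNAI1 and TWIST1 fall outside the rule for named genes and were added after their values were seen. ZEB2 was near the floor in shLuc, with 2 to 3 reads in each shLuc library and 22 to 34 in each shWDR5 library. It passed the filter only through the latter, so no ratio is given. OVOL1, a factor known to hold the Zeb genes down, fell from 22.9 to 9.63 CPM (-1.26, adjusted p = 1.61e-06). OVOL2, also added after its values were seen, was not called (-0.25, adjusted p = 0.0626). The part of OVOL1 in the levels of the Zeb genes was not tested.

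**Figure D5:**
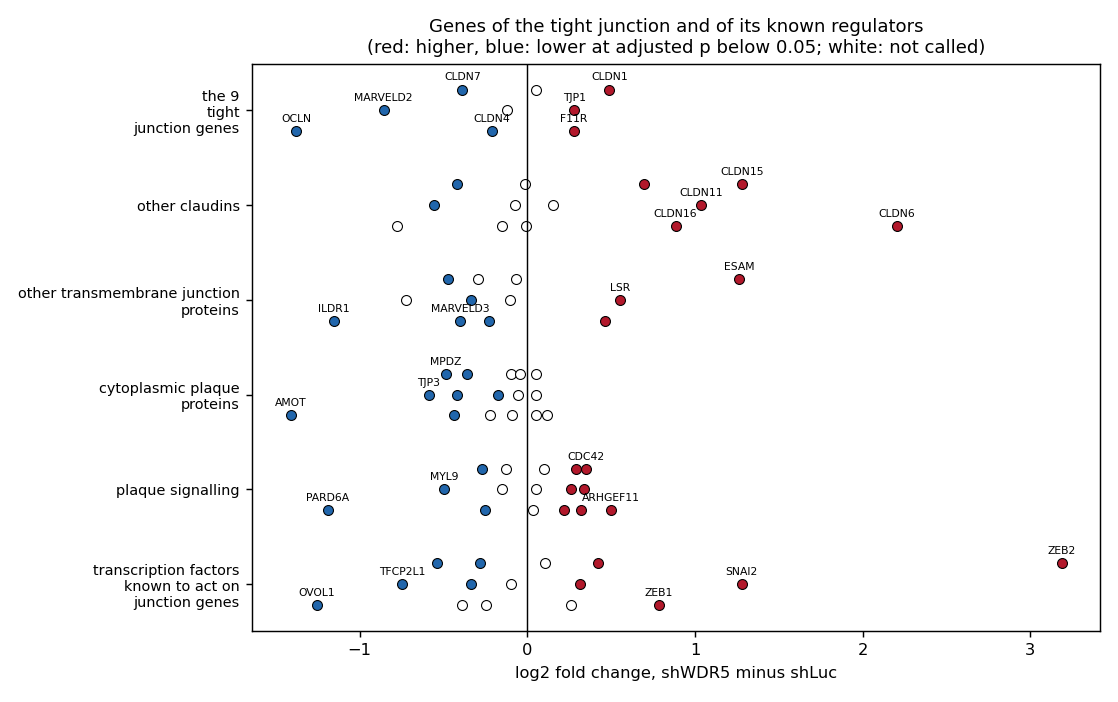
Log2 fold change (shWDR5 against shLuc) of each tested gene in the 5 further junction lists, 1 point per gene, red where higher, blue where lower and white where not called, with the 9 genes described above as the top row and the height within a row carrying no meaning. The plaque row holds 7 blue and 9 white points (43.8% called, beside 56.5% of all genes) and leaves out the plaque gene TJP1, which is red in the top row.

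For each member that was called, the gene of the 5 lists with the closest profile over the 6 libraries was taken, by the root-mean-square difference of centred log2 CPM. OCLN was nearest to AMOT (0.139 log2 units), MARVELD2 to TFCP2L1 (0.114), CLDN7 to AMOTL2 (0.0607) and CLDN4 to ARHGEF2 (0.0586). CLDN1 was nearest to TP63 (0.0579), F11R to ARHGEF18 (0.0378) and TJP1 to CDC42 (0.0625). Each was chosen from 72 tested genes, and OCLN and AMOT were the pair farthest apart. The distance includes the difference between the groups, so a near profile largely means a similar log2 fold change. AMOT had -1.41 beside -1.38 for OCLN, and AMOTL2 had -0.42 beside -0.39 for CLDN7. Shared regulation was not tested.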

How the data were processed

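Poly(A) RNA of MCF10DCIS.com cells was sequenced in 3 shLuc and 3 shWDR5 libraries. The deposited values are raw read counts per gene, which the authors made with TopHat2 2.1.0 on hg19 and featureCounts. The annotation release and the strand setting are not given in the sources used here. A deposited table of the authors' own comparison (log fold change, log CPM, F, p and FDR) was not used. Groups came from the sample titles, and no column was left unassigned.

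Counts were filtered with filterByExpr, scaled by TMM and tested with edgeR 4.0.16 (quasi-likelihood, group as the sole term, R 4.3.3) with Benjamini-Hochberg adjustment over 16117 genes. The study also used edgeR (3.2.2). SE is the absolute log2 fold change divided by the square root of F, and each caption says whether bars are SD, SE or 95% intervals. CPM are TMM-scaled and TPM used the exon lengths of the table. Library totals were 38218108 to 57640167 reads. The biological coefficient of variation, estimated from the spread of counts between libraries of the same group, was 0.0723. The test was tried on simulated counts. Alternatives were RLE, upper-quartile and library-size scaling, other filters, DESeq2 1.42.0, limma-voom (3.58.1), edgeR's exact test, a replicate block, leaving out each library, the study's call rule and, added after seeing the data, leaving out replicate 1 of both groups and counting the lists without genes that passed the filter through 1 group only.

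The 9 genes and the lists were chosen with earlier results of these data known. Named genes are the members, WDR5, up to 4 called genes of each list with the largest absolute log2 fold change, and the nearest profile of each called member. CSDA was found under its current symbol YBX3. Start windows (250 bases) are from a RefSeq table on GRCh38.p14, and gene positions are those of the deposited table on hg19. No ratio is given for CLDN6 and ZEB2, which passed the low-count filter only through the shWDR5 libraries.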

Additional observations from a re-analysis of the deposited data

How the results depend on the processing

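Of the 9 junction genes, OCLN, MARVELD2, CLDN7, CLDN1, F11R and TJP1 kept direction and call in 16 other analyses, apart from the fold limit of the study's call rule. That rule called 2962 genes (1274 higher, 1688 lower), of which 2 members (0 higher, 2 lower) and 8 genes of the wider lists (4 higher, 4 lower). CLDN4 lost its call in 4 analyses, with a log2 fold change between -0.27 and -0.15 over all. CGN, which was never called, turned sign with library-size scaling (-0.00630) and ranged from -0.0196 to 0.134 when single libraries were left out, below 0 without shLuc replicate 2 (-0.0196) and without shWDR5 replicate 1 (-0.0150). It was -0.00276 without replicate 1 of both groups. The cause was not tested. Taken on the CPM scale, which ignores length, the claudin shares in shLuc and shWDR5 were 29.6% and 40.9% for CLDN1, 42.4% and 36.1% for CLDN4, 21.4% and 16.1% for CLDN7 and 5.20% and 4.70% for CLDN12.

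Same-numbered libraries of the groups deviated together with r = 0.372 for replicate 1, 0.0358 for replicate 2 and 0.116 for replicate 3. The value for replicate 1 was the highest of any pair across the groups. Each replicate 1 had a negative r with the other numbers of the other group, from -0.312 to -0.0986. Whether these libraries share an origin was not tested. Not every library correlated best with its own number, and the labels give the numbers no shared origin, so the numbers were not taken as pairs. With the replicate block 10412 genes were called against 9112 without it (4901 higher, 5511 lower), 8 of the members and 47 genes of the wider lists. CLDN12 alone among the members gained a call (log2 fold change -0.13, adjusted p = 0.0364), and no member lost one. The block took the SE of CLDN12 from 0.0991 to 0.0469 and that of CLDN1 from 0.0894 to 0.0478. Leaving out 1 library at a time gave 8120 to 8847 calls over all genes and 6 or 7 among the members. The scalings moved the median log2 fold change of all genes by at most 0.0571. With 3 libraries a group, the 95% intervals of the fold were 0.789 to 1.07 for CLDN12 and 0.903 to 1.19 for CGN, which include 1.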

Other observations

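The following values were picked after they had been seen. The ratio of CLDN1 to OCLN on the per-length TPM scale was 13.0 ± 0.791 in shLuc and 47.4 ± 0.534 in shWDR5 (SD, n = 3 each), the combination of a claudin that was higher with an occludin that was lower, and no test was made of it. Among the epithelial markers, CDH1, which encodes E-cadherin of the neighbouring adherens junction, fell from 496 ± 20.4 to 242 ± 6.88 CPM (log2 fold change -1.03, SE 0.0533, adjusted p = 2.64e-07 by edgeR's quasi-likelihood test with Benjamini-Hochberg adjustment). EPCAM, whose product binds and stabilises claudins in epithelia, fell from 283 ± 21.9 to 225 ± 18.0 CPM (log2 fold change -0.33, adjusted p = 0.00317). The basal keratins KRT5, KRT14 and KRT17 rose with log2 fold changes of 0.91, 1.29 and 0.94, the same direction as CLDN1, F11R and TJP1. The keratins KRT8 (0.04, adjusted p = 0.607) and KRT18 (-0.12, adjusted p = 0.110) were not called. The part of any of these in the levels of the 9 junction genes was not tested.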
